A study of Mus musculus with 3 samples.

Results

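Described here are 9 genes of cytokine signaling, Stat3, Stat5a, Stat5b, Stat6, Socs1, Socs2, Socs3, Cish and Pim1, chosen by name and matched by symbol. The choice was made with earlier results of these data known, so counts set against all genes are descriptions and not support. All 9 were found among the 30406 gene identifiers that the 3 libraries share. Each library was made from thymocytes that, once CD8-positive cells had been taken away on magnetic beads, were sorted for TCRβ and CD1d tetramer binding and against CD24 and NK1.1, a gate meant for invariant natural killer T (iNKT) cells without the NK1.1 receptor. The C57BL/6 library came from mice without bone marrow transplantation (BMT), labelled 7 weeks of age. The BM only and BM + Spl libraries came from lethally irradiated F1 mice (C57BL/6 x BALB/c), labelled 16 weeks of age and 9 weeks after BMT. Both groups of recipients got T cell-depleted C57BL/6 bone marrow, and the BM + Spl mice, which develop graft-versus-host disease (GvHD), also got C57BL/6 splenic cells. The cells of several mice were pooled for each library and carry no mark of the mouse, and donor cells were not told apart from surviving recipient cells.

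Cytokines bind receptors whose cytoplasmic tails carry JAK kinases, and these phosphorylate STAT proteins, which then pair, enter the nucleus and switch on genes. Among the genes they switch on are Cish and the SOCS genes, whose proteins bind receptors or JAKs and shut the signal off, and Pim1, a serine/threonine kinase that favors survival and growth. In the thymus, IL-15 acting through STAT5 supports NKT1 cells, which make interferon-γ, whereas NKT2 cells make IL-4 and IL-13 and NKT17 cells make IL-17. The libraries count mRNA, so the phosphorylated and active state of a STAT protein is not seen in them.

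With 1 library for each group there was no replicate and no test. A level is given in CPM, the unique molecular identifier (UMI) counts of a gene over a sum of cells, scaled to the same total for every sum so that sums of unequal depth can be compared, and bracketed ranges are 95% intervals that cover counting error only and not the spread between mice. Cells were placed in marker gates by their UMIs for fixed marker genes that include none of the 9 genes. NKT1-gated cells numbered 761 in C57BL/6, 2288 in BM only and 413 in BM + Spl, and NKT2-gated cells 1672, 700 and 1178. The gates also showed other kinds of cell in the sort. Foxp3-gated cells numbered 1, 585 and 640, CD8-gated cells 5, 185 and 367, myeloid-gated cells 3, 224 and 444, and B cell-gated cells 1, 82 and 63. A gene was called higher or lower when the ratio of its levels passed 1.5-fold and both sides together held at least 200 UMIs.

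After filtering, the libraries held 34799890 to 58794317 UMIs in 4434 to 5970 cells, and BM only and BM + Spl shared 43 cell barcodes. The C57BL/6 library also stands apart for reasons other than BMT. Its matrix was made with another version of the counting software and another gene annotation, the median share of mitochondrial UMIs was 6.48% against 0.687% and 0.511%, and the median cell had 12086.5 UMIs against 4740 in BM only and 6495 in BM + Spl. V beta transcripts were seen in 65 of its 761 NKT1-gated cells but in 2200 of 2288 in BM only. Genes that respond to tissue dissociation, among them Fos, Jun and Hspa1a, summed to 864 CPM in NKT1-gated C57BL/6 cells, 8657 in BM only and 5491 in BM + Spl. Levels in C57BL/6 and after BMT were therefore not set against each other, since BMT and these differences cannot be told apart, and comparisons run within a library or between BM only and BM + Spl. Correlations over the sums of all libraries are the exception.

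The 9 genes lie on 5 chromosomes of the mouse genome (GRCm38, GENCODE M21). Stat5b (chr11:100780731-100850724, minus strand), Stat5a (chr11:100859351-100885169, plus) and Stat3 (chr11:100885098-100939540, minus) are neighbors, and Socs3 (chr11:117966079-117970047, minus) lies farther along chromosome 11. Stat6 (chr10:127642986-127660957, plus) and Socs2 (chr10:95385362-95417180, minus) share chromosome 10. Cish is at chr9:107296026-107302784 (plus), Socs1 at chr16:10782240-10785536 (minus) and Pim1 at chr17:29490753-29496112 (plus). Stat5a and Stat5b are near-identical over much of their length, so that reads may have been dropped or split between them, and the ends of Stat5a and Stat3 overlap on opposite strands. Stat6, Cish and Pim1 also overlap genes on the other strand. Whether counting used strand is not given in the sources used here, and the split of reads in these overlaps is uncertain.

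STAT proteins bind the palindrome TTCNNNGAA, and 8 of the 9 genes had promoters, 250 bases before to 50 after a RefSeq start (GRCm38.p6), in the sequences at hand, 11 in all. Of the 11 promoters, 2 held the palindrome, those of Cish and Socs3, while 2726 of all 32851 promoters (8.30%) did. They are shown because, among the promoters of the 8 genes searched, they are the ones that hold it, and both genes recur below. Socs2 had no promoter in the sequences at hand and was not searched. Capitals mark the match, whose outer 3 bases at each end pair with each other, so that a match on one strand is also one on the other, and each line runs 5′ to 3′ on the strand of the gene.
Cish, chr9:107296654-107296683, plus strand: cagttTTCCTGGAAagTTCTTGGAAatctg
Socs3, chr11:117969502-117969530, minus strand: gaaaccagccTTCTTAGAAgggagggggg
The 2 Cish sites began at bases 1 and 12 from the RefSeq start and lie in an untranslated exon of the transcript Cish-201. The Socs3 site began 154 bases before the start, inside the transcript Socs3-202 but in none of its exons. The form with 4 bases between the same arms was in 0 of the 11 promoters and in 6.95% of all. These matches describe letters, and binding was not measured.

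**Figure D1:**
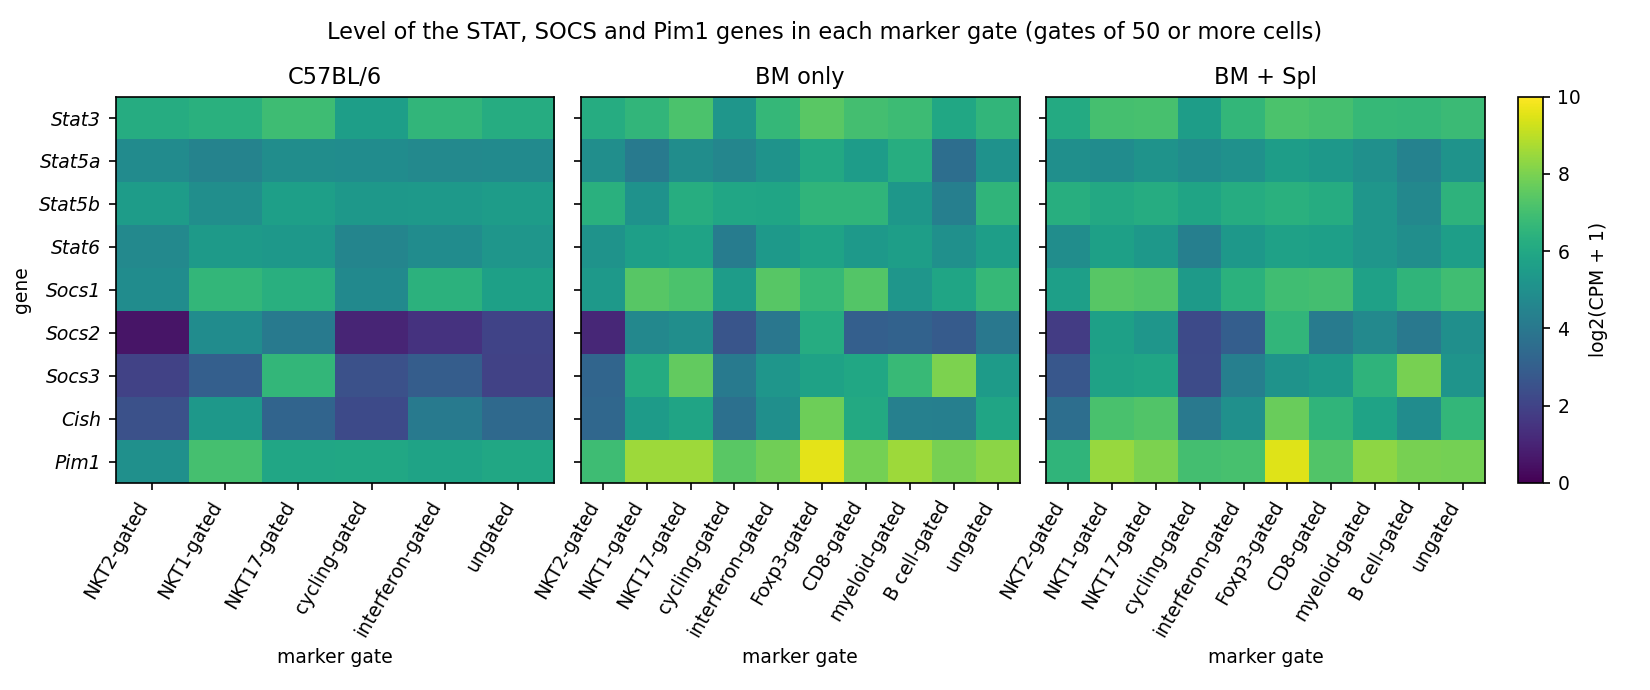
Heat map of the 9 genes (rows) in the marker gates (columns) of the 3 libraries, gates of 50 or more cells, with color giving log2(CPM + 1). Socs2, Socs3 and Cish span the widest ranges, from 0.466 CPM of Socs2 in NKT2-gated C57BL/6 cells and up to 261.3 CPM of Socs3 in B cell-gated BM only cells.

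The feedback inhibitors and Pim1 made up a higher share of UMIs in NKT1-gated than in NKT2-gated cells of each library. Socs2 and Socs3 had too few UMIs to be called in C57BL/6 and in BM + Spl. In C57BL/6, 4 of the 7 genes with enough UMIs were higher in NKT1-gated cells (Stat6, Socs1, Cish and Pim1), against 13.5% of the 8047 genes tested, and 1 was lower (Stat5b), against 10.7%. The medians were 0.78 on the log2 scale for the 7 genes and 0.03 for all genes tested. In BM only, 5 of 9 were higher (Socs1, Socs2, Socs3, Cish and Pim1) and 2 lower (Stat5a and Stat5b), where 14.7% and 11.6% of 7175 genes were. In BM + Spl, 5 of 7 were higher (Stat3, Stat6, Socs1, Cish and Pim1) and 0 lower, where 12.1% and 12.0% of 6420 genes were. Socs1, Cish and Pim1 were thus called higher in all 3 libraries, and no gene was called in opposite directions. Of the dissociation response genes, 4 of 6, 9 of 9 and 8 of 8 were also higher in NKT1-gated cells of the 3 libraries, and their part in the result was not tested.

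Among the STAT genes, the STAT5 pair went the other way from the inhibitors. Stat5b, which carries IL-2, IL-7 and IL-15 signals, was at 30.1 CPM in NKT1-gated and 45.5 in NKT2-gated C57BL/6 cells (log2 ratio -0.60, -0.85 to -0.35) and at 32.9 and 81.1 in BM only (-1.30, -1.50 to -1.10). In BM + Spl it was at 65.1 and 75.3 CPM, with a log2 ratio of -0.21 (-0.47 to 0.04). So Stat5b was lower in NKT1-gated cells in 2 libraries, in C57BL/6 just past the 1.5-fold threshold, and was not called in BM + Spl. Its paralog Stat5a was at 21.3 and 27.5 CPM in C57BL/6, 16.1 and 29.3 in BM only, and 28.4 and 30.7 in BM + Spl, and was called lower only in BM only, with a log2 ratio of -0.87.

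Stat6, the factor that IL-4 and IL-13 activate, made up a higher share of UMIs in NKT1-gated than in NKT2-gated cells. Its levels were 42.7 and 24.9 CPM in C57BL/6, 49.0 and 33.9 in BM only, and 50.6 and 28.9 in BM + Spl. The ratios were 1.72-, 1.45- and 1.75-fold, so that the BM only value fell short of 1.5. NKT1-gated cells held fewer UMIs each than NKT2-gated cells, with medians of 6265 and 13402.5 in C57BL/6, 4406 and 8364 in BM only, and 4750 and 9119 in BM + Spl. A Stat6 UMI was seen in 23.5% and 28.2% of cells in C57BL/6, 19.9% and 24.9% in BM only, and 22.5% and 23.1% in BM + Spl. Stat3, which IL-6, IL-21 and IL-23 activate, was at 79.4 and 72.9 CPM in C57BL/6, where the log2 interval included 0 (-0.04 to 0.28). In BM only it was at 96.0 and 72.8, 1.32-fold and short of the threshold, and it was called higher only in BM + Spl, at 132.7 and 68.9.

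Socs1, which binds JAKs and limits interferon and common γ-chain cytokine signals, was at 97.8 CPM in NKT1-gated and 28.4 in NKT2-gated C57BL/6 cells. After BMT its levels were 169.8 and 41.6 in BM only and 169.8 and 48.6 in BM + Spl. The 3 log2 ratios were 1.79 (1.62 to 1.96), 2.03 (1.84 to 2.22) and 1.81 (1.61 to 2.0), which overlap. Socs1 was thus the inhibitor whose ratio differed least between libraries.

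Cish, whose protein dampens IL-2 and T cell receptor signals and whose gene is a classical STAT5 target, was at 38.8 CPM in NKT1-gated and 4.54 in NKT2-gated C57BL/6 cells. It was at 44.3 and 9.18 in BM only and at 137.5 and 11.4 in BM + Spl. The fold was 8.56, 4.83 and 12.1, and the BM + Spl interval on the log2 scale (3.29 to 3.90) lay above that of BM only (1.87 to 2.70). When only cells with the V beta segments common in iNKT cells were kept, which are named further on, Cish was at 43.6 and 5.98 CPM in BM only, a log2 ratio of 2.87 in place of 2.27, and at 95.2 and 7.92 in BM + Spl, so that the ratios of these libraries lay closer together. The BM + Spl values in these cells rest on 85 and 75 UMIs, too few to call.

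Socs2, an inhibitor best known from growth hormone signaling and also induced by STAT5, was far higher in NKT1-gated than in NKT2-gated cells. In C57BL/6 it had 145 UMIs in NKT1-gated cells and 11 in NKT2-gated cells, although the latter sum was the deeper, which gives 28.1 and 0.466 CPM. The counts were 261 and 7 in BM only and 115 and 27 in BM + Spl. The log2 ratios were 5.92 (5.03 to 6.95), 4.42 (3.35 to 5.75) and 4.38 (3.76 to 5.04), and those of C57BL/6 and BM + Spl rest on fewer than 200 UMIs and were not called.

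Socs3, the inhibitor of IL-6 family signals that act through STAT3, was at 7.18 and 2.97 CPM in NKT1-gated and NKT2-gated C57BL/6 cells, on 37 and 70 UMIs. It was at 70.7 and 8.52 in BM only and at 53.7 and 5.56 in BM + Spl. Pim1 was at 131.6 and 31.4 CPM in C57BL/6, 368.8 and 118.8 in BM only, and 354.1 and 91.1 in BM + Spl. For Pim1 this was 4.19-, 3.1- and 3.89-fold, with the NKT1-gated cells on top each time.

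**Figure D2:**
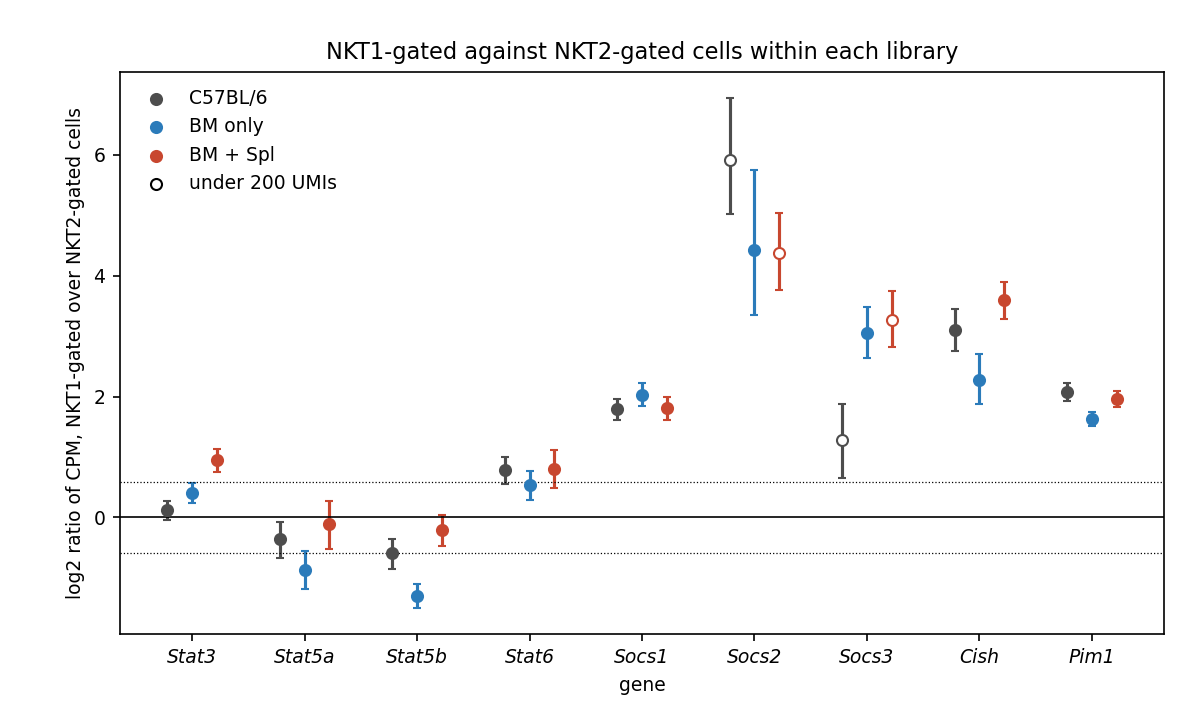
Log2 ratio of CPM in NKT1-gated over NKT2-gated cells (y axis) for each gene (x axis) in C57BL/6, BM only and BM + Spl; bars are 95% counting intervals, dotted lines mark 1.5-fold, and open points rest on fewer than 200 UMIs. Socs1, Socs2, Socs3, Cish and Pim1 lie above 1 in each library, whereas Stat5a and Stat5b lie below 0.

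The rest of the pathway was read from lists of genes fixed by name, also with earlier results of these data known. Of 7 JAK and other STAT genes, 4 were higher in NKT1-gated than in NKT2-gated C57BL/6 cells and 0 lower. They were Stat4, the factor that IL-12 activates (75.5 and 1.10 CPM), Jak3 (28.1 and 16.7), Jak1 (448.4 and 276.7) and Tyk2 (35.3 and 22.4). Of 14 cytokine receptor genes tested, 7 were higher and 3 lower. Over all 8047 genes tested, 13.5% were higher and 10.7% lower, the shares to set beside both counts. The IL-12 receptor chain Il12rb2 was at 43.9 and 0.763 CPM and the interferon-γ receptor chain Ifngr1 at 322.9 and 15.1. The IL-6 receptor Il6ra went the other way, at 12.2 and 105.2 CPM. Ifngr2, the other interferon-γ receptor chain, had 0 UMIs in NKT1-gated cells and 15.1 CPM in NKT2-gated cells, at least 26.0-fold lower when 3 counts are taken as the floor. The chains of the interferon-γ receptor thus lay on opposite sides.

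For other brakes on the pathway the median log2 ratio in C57BL/6 was 0.24, against 0.03 for all genes tested. Of 12 other negative regulators tested, among them phosphatases and PIAS proteins, 3 were higher in NKT1-gated cells (Pias1, Ptpn6 and Sh2b3) and 0 lower. Over all 8047 genes tested, 13.5% were higher and 10.7% lower, and the count of regulators is not read as a difference. Of 7 other STAT5 responsive genes, 4 were higher and 0 lower, led by the survival gene Bcl2 at 418.3 and 57.1 CPM. Of the other Pim kinases, Pim2 was higher at 20.2 and 5.38 CPM and Pim3 was not called. In BM only and BM + Spl, Stat4 was again the JAK or STAT gene with the largest ratio, at 137.2 and 3.28 CPM and at 134.9 and 8.51.

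NKT17-gated cells of C57BL/6 stood out by Socs3. In C57BL/6, 226 NKT17-gated cells held Socs3 at 97.8 CPM (86.7 to 110.0) against 2.97 (2.31 to 3.75) in NKT2-gated cells, a log2 ratio of 5.04 (4.66 to 5.44). Of 7 genes with enough UMIs, 5 were higher in NKT17-gated cells and 0 lower, where 7.95% and 5.84% of 7839 genes were. The others were Socs1 (log2 ratio 1.47), Pim1 (0.91), Stat3 (0.71) and Stat6 (0.68). Socs1, Pim1 and Stat6 were also called higher in NKT1-gated C57BL/6 cells, at 1.79, 2.07 and 0.78. With only cells of iNKT V beta segments kept, 34 NKT17-gated and 339 NKT2-gated, just 2 genes held enough UMIs to be tested. Of these 0 were called, and Stat3 was at a log2 ratio of 0.45. The share over all genes tested in these cells is not given here, so the 0 of 2 does not compare with the 5 of 7. Socs3 had too few UMIs there to be tested, 48 and 11, at 101.6 CPM (74.9 to 134.7) and 2.20 (1.10 to 3.93). Over all cells of the 2 gates, Stat3, which drives the IL-17 program under IL-23 and IL-6, was at 119.1 and 72.9 CPM. Cish in the NKT17-gated C57BL/6 cells was at 8.38 CPM on 24 UMIs, against 38.8 in NKT1-gated and 4.54 in NKT2-gated cells. Socs2 was at 16.4 CPM on 47 UMIs in the NKT17-gated cells.

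Of the gates that C57BL/6 filled with 50 or more cells, NKT17-gated cells had the highest Socs3 level, with no interval of another gate reaching it. The next was NKT1-gated at 7.18 CPM (5.06 to 9.90) and then interferon-gated at 6.69 (4.24 to 10.0), whose intervals overlap. In BM only the highest was B cell-gated at 261.3 (222.8 to 304.4), followed by NKT17-gated at 194.2 (177.1 to 212.5) and myeloid-gated at 104.9 (90.3 to 121.2). In BM + Spl the B cell-gated cells stayed at 248.5 (209.4 to 292.7), but NKT17-gated cells were at 58.5 (47.9 to 70.8), below myeloid-gated at 89.8 (80.7 to 99.7) and beside NKT1-gated at 53.7 (44.6 to 64.1). NKT2-gated and cycling-gated cells held the least Socs3 after BMT, from 3.84 to 16.1 CPM.

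**Figure D3:**
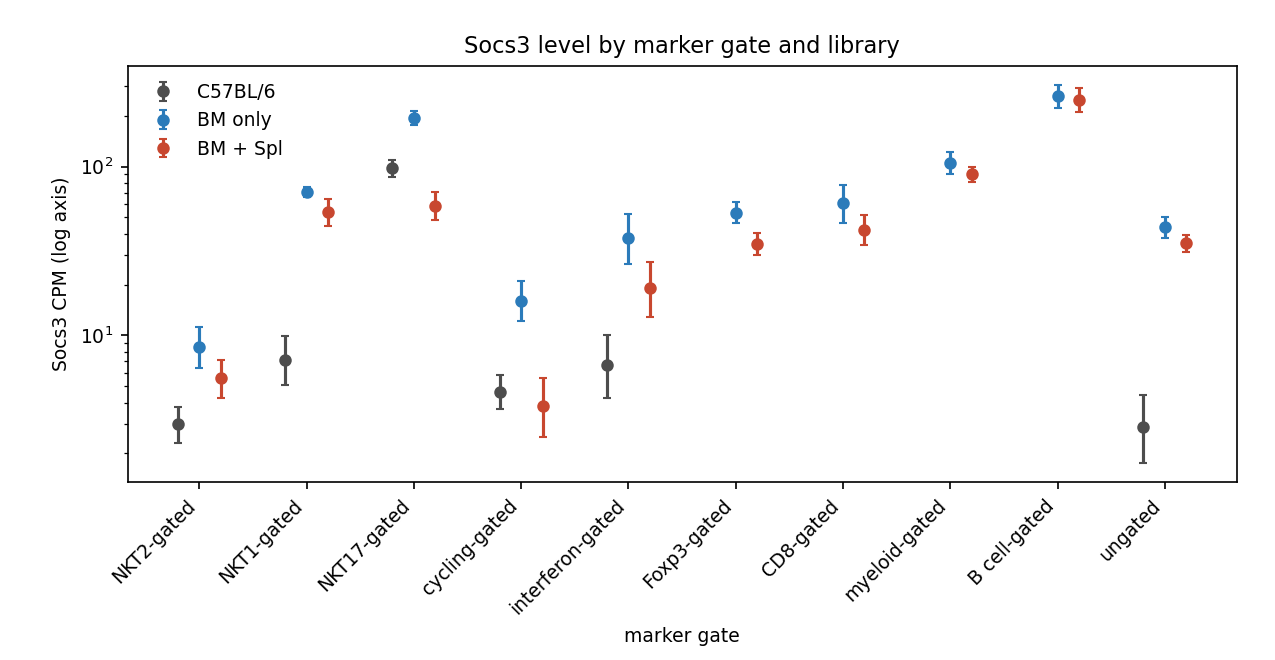
Socs3 level in CPM (y axis, log scale) by marker gate (x axis) in the 3 libraries, gates of 50 or more cells, with 95% counting intervals. NKT17-gated cells lie at 97.8 CPM in C57BL/6, 194.2 in BM only and 58.5 in BM + Spl, and B cell-gated cells lie highest after BMT.

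GvHD was then examined by setting BM + Spl against BM only within a gate. In NKT1-gated cells, 4 of the 9 genes were higher in BM + Spl (Stat5a, Stat5b, Socs2 and Cish), where 6.34% of 6447 genes were, and 0 were lower, where 8.84% were. Cish was at 137.5 CPM (122.8 to 153.6) in BM + Spl and 44.3 (40.4 to 48.5) in BM only, or 3.1-fold. Socs2 was at 50.2 and 24.5 CPM, Stat5b at 65.1 and 32.9, and Stat5a at 28.4 and 16.1, with folds of 2.05, 1.98 and 1.77. The Socs2 call was lost, at a log2 ratio of 0.46 in place of 1.03, when the gates were set on cells drawn down to 2700 UMIs each. Socs1 (169.8 in both) and Pim1 (354.1 and 368.8) were nearly level, with log2 intervals of -0.16 to 0.16 and -0.17 to 0.05. Stat6 was also near level, at 50.6 and 49.0 CPM, while Stat3 was at 132.7 and 96.0 and Socs3 at 53.7 and 70.7, short of 1.5-fold.

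Of the STAT5 responsive genes on the fixed list, 4 of 9 tested were higher in BM + Spl NKT1-gated cells and 2 lower. Over all 6447 genes tested, 6.34% were higher and 8.84% lower, the shares to set beside each list count here. The cytokine gene Lta was at 104.8 and 12.0 CPM and the IL-2 receptor chain Il2ra at 102.6 and 22.7, whereas the cyclin gene Ccnd3 was lower, at 222.7 and 398.1. Bcl2l1, which encodes a survival protein, was at 32.7 and 15.7. Of 13 receptor genes tested, 1 was higher (Il2ra, which is on both lists) and 3 lower (Il12rb2, Il7r and Ifngr1), with Il12rb2 at 28.8 and 103.1 CPM. Of 7 JAK and other STAT genes 0 passed 1.5-fold either way. Genes of these lists were not split by V beta segment.

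The NKT1-gated cells of BM + Spl and BM only were not the same mix of cells. Their median UMIs for the NKT1 marker genes were 19 in BM + Spl and 31 in BM only. Of NKT1-gated cells with V beta UMIs, 87.5% in BM only but 40.4% in BM + Spl had at least 80% of them on 6 segments common in iNKT cells (Trbv1, Trbv12-2, Trbv13-1, Trbv13-2, Trbv13-3 and Trbv29), which conventional T cells use too. In cells of these segments Cish was at 43.6 CPM (39.4 to 48.1) in 1924 BM only cells and 95.2 (76.0 to 117.7) in 156 BM + Spl cells. In cells of other segments it was at 60.8 (43.6 to 82.5) in 140 cells and 172.5 (148.9 to 198.8) in 211 cells. Cish was thus higher in BM + Spl on both groups of segments, and within BM + Spl it was higher in cells of other segments. The 6 segments do not mark iNKT cells alone. Of BM + Spl cells with V beta UMIs, 24.8% of the Foxp3-gated and 33.4% of the CD8-gated were on them. The split therefore did not hold the kind of cell fixed, and a rise within iNKT cells was not tested.

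Socs2 behaved otherwise. In NKT1-gated cells of the iNKT segments it was at 25.5 CPM (22.3 to 29.1) in BM only and 32.5 (21.8 to 46.6) in BM + Spl, a log2 difference of 0.35 that was not called. In cells of other segments it was at 26.7 (15.8 to 42.2) and 69.6 (54.9 to 86.9). Stat5b in cells of the iNKT segments was at 32.7 (29.0 to 36.6) and 57.1 (42.5 to 75.1) and stayed called, with a log2 ratio of 0.81. Stat5a was at 15.5 (13.0 to 18.3) and 30.2 (19.9 to 44.0) on 139 and 27 UMIs, too few to call. The count of genes called therefore fell from 4 of 9 to 2 of 8 when only cells of the iNKT segments were kept, Cish and Stat5b being the 2. The share over all genes tested in these cells is not given here, so the 2 of 8 has no background beside it.

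**Figure D4:**
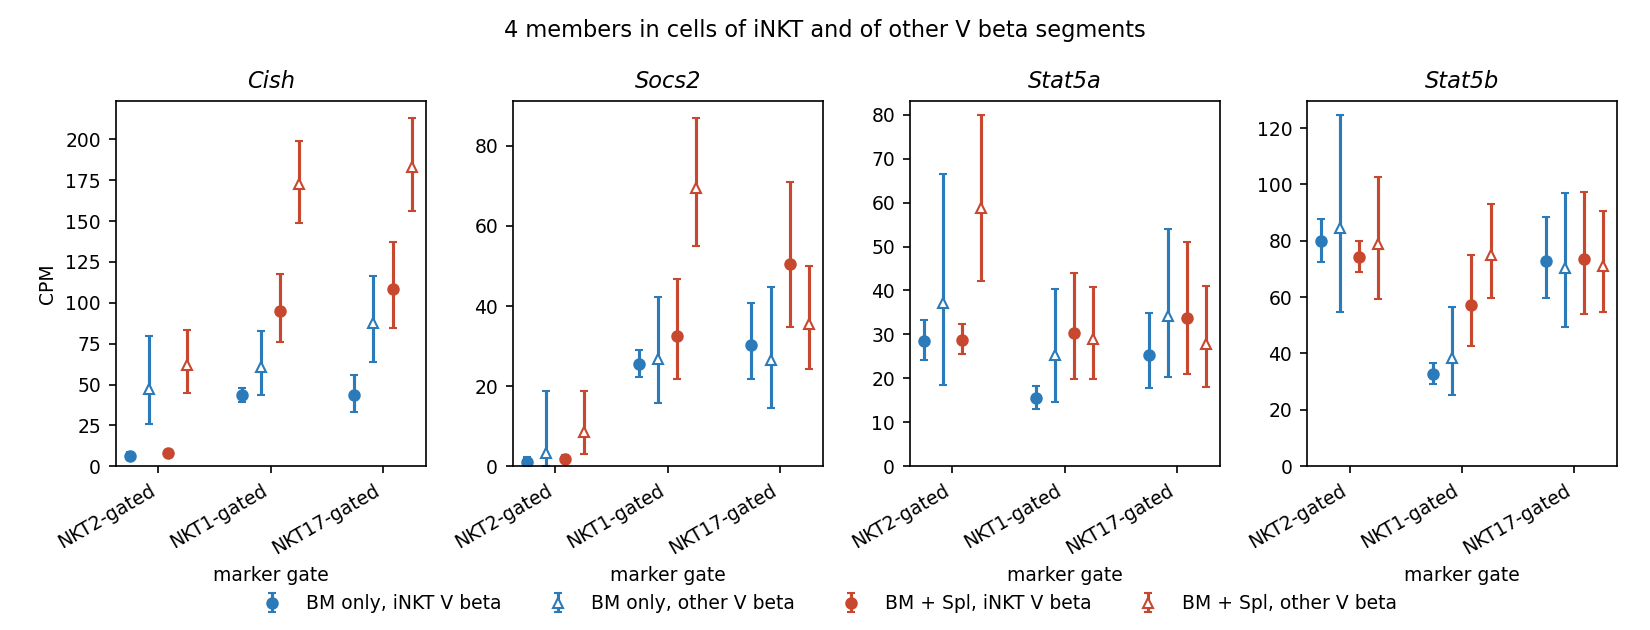
Level in CPM (y axes, from 0) of Cish, Socs2, Stat5a and Stat5b in NKT2-, NKT1- and NKT17-gated cells (x axes) of BM only and BM + Spl, for cells of iNKT V beta segments (filled) and of other segments (open), with 95% counting intervals. Cish in NKT1-gated cells of other segments is at 172.5 CPM in BM + Spl and 60.8 in BM only, and Socs2 of the iNKT segments is at 32.5 and 25.5.

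In NKT2-gated cells, whose V beta makeup was alike (87.0% and 83.6% on the iNKT segments), 0 of the 6 genes with enough UMIs passed 1.5-fold between BM + Spl and BM only in either direction, as 0.369% of 7052 genes did upward and 0.936% downward. Stat5b was at 75.3 and 81.1 CPM, Socs1 at 48.6 and 41.6 and Pim1 at 91.1 and 118.8. Cish (11.4 and 9.18 CPM), Socs3 (5.56 and 8.52) and Socs2 (2.42 and 1.15) had fewer than 200 UMIs over both sides. The Cish interval on the log2 scale ran from -0.15 to 0.79, which lies below the interval in NKT1-gated cells (1.42 to 1.84). The pooled Cish level hides a gap between segments. NKT2-gated cells of the iNKT segments held 5.98 CPM in BM only and 7.92 in BM + Spl. Those of other segments held 47.3 (25.9 to 79.4) and 61.7 (44.7 to 83.1), on 14 UMIs in 37 cells and 43 UMIs in 90 cells.

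In NKT17-gated cells, Cish was at 152.9 CPM (135.4 to 172.0) in BM + Spl and 55.7 (46.7 to 65.9) in BM only, 2.74-fold, and Socs3 was at 58.5 and 194.2, 3.32-fold lower in BM + Spl. These were the 1 higher and 1 lower of 7 genes tested, where 5.46% and 5.2% of 3153 genes were. This gate also changed in makeup, from 58.4% to 34.2% of cells on the iNKT segments. Within cells of the iNKT segments Socs3 was at 199.3 (176.8 to 223.9) and 68.8 (50.2 to 92.1), and within the other cells at 167.2 (134.1 to 206.0) and 49.9 (36.4 to 66.8). Cish was at 43.5 in BM only and 108.6 in BM + Spl in cells of the iNKT segments, and at 87.4 and 183.1 in the others. Both differences were thus present on both groups of segments. As these groups do not separate iNKT from conventional T cells, differences within iNKT cells were not tested.

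Foxp3 is the transcription factor of regulatory T cells, which depend on IL-2 and STAT5, and Foxp3-gated cells held the most Cish, Socs2 and Pim1 of the gates after BMT. Cish was at 218.2 CPM (203.1 to 234.1) in BM only and 209.4 (197.1 to 222.3) in BM + Spl. Pim1 was at 769.5 and 720.7 and Socs2 at 72.7 and 94.3. For all 3 genes and in both libraries the interval lay above those of the other gates. The next gate for Cish was CD8-gated in BM only, at 65.6 (50.5 to 83.8), whose interval overlapped those of ungated and NKT17-gated cells, and NKT17-gated in BM + Spl, at 152.9. Between BM + Spl and BM only, 0 of 9 genes were higher in Foxp3-gated cells and 1 was lower, Socs3 at 34.6 and 53.4 CPM, where 1.86% and 3.4% of 5528 genes were. Elsewhere in the sort Cish was 2.8-fold higher in BM + Spl in myeloid-gated cells (54.0 and 19.3 CPM) and 1.68-fold in ungated cells. Socs2 was 3.16-fold higher in myeloid-gated cells, on 98 and 14 UMIs, and 2.06-fold in ungated cells. In B cell-, CD8-, cycling- and interferon-gated cells Cish did not pass 1.5-fold. The share over all genes is not given here for these gates.

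**Figure D5:**
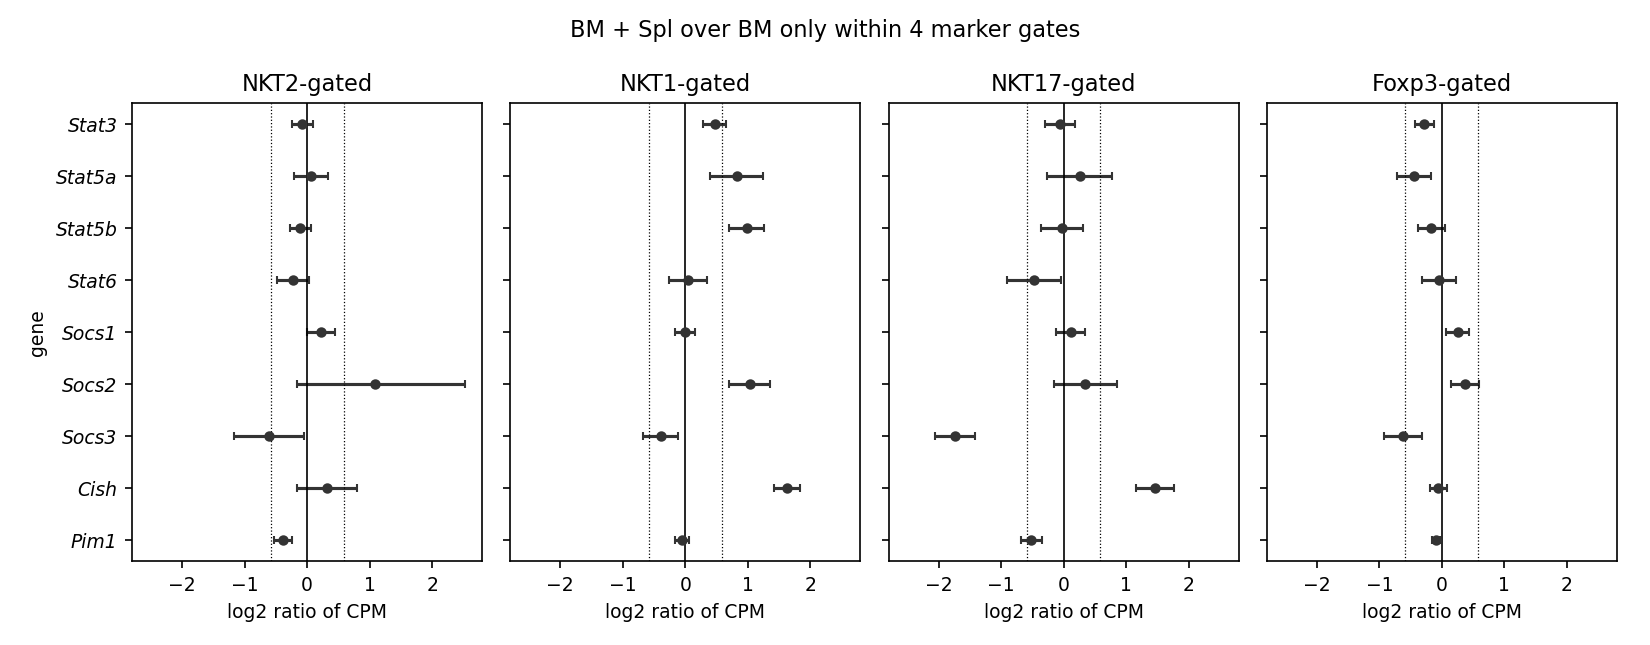
Log2 ratio of CPM in BM + Spl over BM only (x axes) for the 9 genes (y axis) in 4 marker gates, with 95% counting intervals and dotted lines at 1.5-fold. Cish is at 1.63 in NKT1-gated and 1.46 in NKT17-gated cells but at -0.06 in Foxp3-gated cells, and Socs3 is at -1.73 in NKT17-gated cells.

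Over all filtered cells of BM + Spl against BM only, 0 of 9 genes were higher, against 4.86% of 10612, and 1 was lower, Socs3 at 32.0 and 61.9 CPM, against 5.34%. Cish was at 72.5 and 53.6 CPM, 1.35-fold, and Pim1 at 247.1 and 328.7. A sum over all cells holds the change in makeup as well as the level within cells, and the NKT1 gate held 38.3% of BM only and 7.43% of BM + Spl cells, and the NKT2 gate 11.7% and 21.2%. The dissociation response genes were lower in BM + Spl in each gate, for example 5491 against 8657 CPM in NKT1-gated and 4975 against 9292 in NKT17-gated cells. In these gates Socs3 was also lower and Cish was higher. The part of the dissociation response genes in the Socs3 and Cish differences was not tested.

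In Foxp3-gated and NKT17-gated cells after BMT, those with a Cish UMI also held more Socs2, once each cell had been drawn down to 2700 UMIs. In Foxp3-gated BM only cells, Socs2 was at 122.3 CPM in 221 cells with a Cish UMI and 37.9 in 274 without, and in BM + Spl at 147.6 in 251 and 63.8 in 325. In NKT17-gated cells it was at 89.4 and 25.1 in BM only and at 98.2 and 34.8 in BM + Spl. In NKT2-gated BM + Spl cells it was at 56.98 and 1.995, on only 4 UMIs in 26 cells with and 6 in 1114 without. In NKT1-gated cells the intervals of the log2 ratio included 0 in each library, from -0.62 to 1.74 in C57BL/6, -0.76 to 0.97 in BM only and -0.39 to 1.32 in BM + Spl. Split the other way, by a Socs2 UMI, NKT1-gated BM + Spl cells held Cish at 235.7 and 138.3 CPM (log2 interval 0.12 to 1.37). The interval of that split included 0 in C57BL/6 (-0.09 to 2.02) and in BM only (-0.58 to 0.98). Pim1 in Foxp3-gated cells with and without a Cish UMI was at 1227 and 721.8 CPM in BM only and at 1090 and 834.2 in BM + Spl. These values come from cells of the same library and describe it alone.

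Across the 26 sums of a gate and a library, with log2(CPM + 1) as the measure, the member pair most alike was Socs2 and Cish, with Pearson r of 0.88, followed by Stat3 and Stat6 at 0.87. The r of Socs2 with Cish was 0.72 within C57BL/6, 0.87 within BM only and 0.95 within BM + Spl. The r of Stat5b with Cish was 0.42 over all sums, but -0.70 within C57BL/6, 0.40 within BM only and 0.34 within BM + Spl. With Socs2 it was 0.21 over all sums and -0.38, 0.14 and 0.10 within the libraries. Among 9913 genes, those most like Cish were Tnfrsf18 (0.94), Dhrs7 (0.93) and Mdfic (0.92). For Socs1 they were Stat4 (0.91), Gm4070 (0.87) and Ifngr1 (0.87), whereas for Socs3 they included Gpr183 (0.90) and Rgmb (0.89), and for Pim1 they were Nfil3 (0.94), Ninj1 (0.93) and Cldnd1 (0.92). For Socs2 they were Gpr132 (0.91), Ifngr1 (0.89) and Cish itself. Of the STAT genes, Stat3 was most like Ubxn6 (0.89), Stat5a most like Mcub (0.87) and Stat6 most like Ypel3 (0.88). An r over the 26 sums also takes in the differences between C57BL/6 and the BMT libraries. Within C57BL/6, Pim1 had an r of 0.67 with Ninj1, whereas Cish had 0.94 with Dhrs7. The sums share 3 libraries and their depths, and genes are not independent replicates, so these values only describe the pattern.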

How the data were processed

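The authors deposited, per library, a filtered droplet matrix of UMI counts per gene and cell. Per the file headers it was made with Cell Ranger 3.0.2 for C57BL/6 and 7.0.0 for BM only and BM + Spl, with 31053 and 32285 gene identifiers. The labels name 3′ and 5′ kits without tying them to libraries, and the submitters' processing notes give the mouse build mm10. A cell was kept when its genes numbered between 200 and 6000 and mitochondrial transcripts made up less than 10% of its UMIs, no doublet caller was run, and counts were summed over the 30406 shared identifiers (Python 3.11.15, scipy 1.17.1). Marker genes of the gates were fixed lists, and the thresholds and order of the gates were set after marker UMI distributions had been seen, without reading the 9 genes. Intervals were exact Poisson for levels and exact conditional binomial for ratios, at 95%, and the ratio script was tested on simulated data. The 9 genes and all lists were chosen with earlier results of these data known, and the dissociation list was added later. Named were the 9 genes, at most 4 genes past 1.5-fold per list and, of the 3 genes most alike, those given in the text, some being not reported here. The alternatives were gates on cells drawn to 2700 UMIs, doubled thresholds, CPM without mitochondrial, ribosomal and TCR genes, the mean of each cell's CPM, no cell filter, cells of iNKT V beta segments only, leaving out the top 6% of UMIs and, added after seeing the data, centring on the median of all genes.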

Additional observations from a re-analysis of the deposited data

Results flagged for a closer look

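For 2 genes the ratio of BM + Spl over BM only passed 1.5-fold in opposite directions in a pair of gates, both intervals lying clear of 0. The log2 ratio of Stat5a was 0.821 in NKT1-gated and -1.23 in myeloid-gated cells. That of Socs1 was 0.683 (0.0455 to 1.34) in B cell-gated and -1.02 in interferon-gated cells. The B cell-gated value rests on 53 and 36 UMIs, too few for a call, and its interval is barely clear of 0. With 1 library for each group these differences between gates were not tested.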

How the results depend on the processing

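Of 418 log2 ratios of the 9 genes recomputed under 8 alternatives, 0 changed sign while called, 3 calls were lost and 5 gained. Ratios that fell under 200 UMIs are not among the 418, and calls that ended that way are not counted as lost. Keeping cells of iNKT V beta segments only left 42 ratios, against 54 without a cell filter. Keeping cells of iNKT V beta segments only moved several counts of called genes, for which the share over all genes tested is not given here. The NKT1- against NKT2-gated count in C57BL/6 was 1 of 2 tested in place of 5 of 7, and the NKT17- against NKT2-gated count was 0 of 2 in place of 5 of 7. There the 60, 34 and 339 cells with such V beta UMIs left fewer genes with 200 UMIs. Between NKT1- and NKT2-gated BM + Spl cells, Cish, on 85 and 75 UMIs, was no longer tested, so that count fell too. For BM + Spl against BM only the count was 2 in place of 4 in NKT1-gated cells, and 3 in place of 1 over all filtered cells, where Socs1 (-0.70) and Pim1 (-0.78) joined Socs3 as lower and the cause was not tested. Socs2 over all filtered cells, never called, was then at -0.48 in place of 0.32, and the Stat3 ratio of NKT17- over NKT2-gated C57BL/6 cells at 0.45 was no longer called. With gates set on cells drawn to 2700 UMIs, the Socs2 log2 ratio in NKT1-gated cells was 0.46 in place of 1.03 and no longer called. The other calls gained were Stat6 between NKT1- and NKT2-gated BM only cells (0.65 with those gates, 0.65 with doubled thresholds) and Stat3 between BM + Spl and BM only NKT1-gated cells (0.66 with those gates). Leaving out mitochondrial, ribosomal and TCR genes shifted the median of all genes between NKT1- and NKT2-gated cells to -0.12 in BM only and in BM + Spl, and changed no call. No paired analysis was possible because each group has 1 library, and no replicate could be left out for the same reason. Socs2 and Socs3 in NKT2-gated cells rest on at most 70 UMIs.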
